A study of Mus musculus with 56 samples.

Results

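p65 is a subunit of the transcription factor NF-κB that carries an activation domain. Its binding to the genome was followed by ChIP-seq in mouse bone marrow-derived macrophages (BMDMs) that had been kept in IL-4 for 24 hr and were then left alone or given LPS for 1 hr. These were 4 of the 56 samples of the series, 2 labelled 24hIL4_ctrl (IL-4 PT/ctrl below) and 2 labelled 24hIL4_1hLPS (IL-4 PT/LPS). Every p65 peak of the 4 lists was used, genome-wide, and peaks that overlapped were merged into 46467 regions. The cells of both groups were wild-type, came from the marrow of mice 8 to 12 weeks old, and had been differentiated for 6 days with L929 cell supernatant as the source of MCSF. IL-4 was used at 20 ng/ml and LPS at 100 ng/ml per the labels, while the study's methods give the LPS dose in nM, so its unit is in doubt. All 4 samples were crosslinked with DSG and formaldehyde and precipitated with the same p65 antibody. LPS was therefore the difference between the groups, and IL-4 was shared by both. BMDMs grown in MCSF are a culture model, and nothing in the labels says whether replicates came from different mice, so p-values measure the spread between these samples.

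In resting cells p65 sits mostly in the cytoplasm, held by inhibitors of the IκB family. LPS binds TLR4, the IκB kinase complex is activated, IκBα is degraded, and p65 enters the nucleus and binds κB sites near cytokine, chemokine, and survival genes. Among its first targets are its own inhibitors, such as Nfkbia (IκBα) and Tnfaip3 (A20), which close the loop. IL-4, through STAT6, drives macrophages toward alternative activation, and the comparison asks how p65 responds to LPS in cells already set on that course.

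The windows of 200 bp below show the kinds of p65 region that the results turn on. The first 2 had p65 before and after LPS at promoters of feedback genes, the next 3 were new with LPS, the sixth was strong in all 4 samples, the seventh is an enhancer of Irak3, and the last was lost with LPS. They were read from RefSeq's GRCm38.p6 (the mm10 build of the files), plus strand, 5′ to 3′, around the centre of each region's strongest peak. Capitals mark the loose κB letters GGANNNNCC and the AP-1 letters TGANTCA, on either strand.
Nfkbia −0.2 kb, chr12:55492714-55492913: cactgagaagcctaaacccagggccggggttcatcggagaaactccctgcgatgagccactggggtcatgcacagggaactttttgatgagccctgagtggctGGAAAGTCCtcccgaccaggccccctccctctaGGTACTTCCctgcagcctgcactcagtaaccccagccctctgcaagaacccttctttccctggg
Tnfaip3 −0.1 kb, chr10:19015442-19015641: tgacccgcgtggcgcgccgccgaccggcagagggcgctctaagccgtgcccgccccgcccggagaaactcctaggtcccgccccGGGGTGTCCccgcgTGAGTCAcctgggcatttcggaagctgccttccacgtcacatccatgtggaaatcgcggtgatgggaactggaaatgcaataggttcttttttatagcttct
Tnfaip3 −30.8 kb, chr10:19046105-19046304: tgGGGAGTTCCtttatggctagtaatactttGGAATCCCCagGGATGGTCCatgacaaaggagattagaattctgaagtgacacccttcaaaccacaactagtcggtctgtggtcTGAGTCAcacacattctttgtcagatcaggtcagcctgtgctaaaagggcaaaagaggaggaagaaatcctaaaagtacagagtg
Nfkb1 +51.2 kb, intron 6, chr3:135640284-135640483: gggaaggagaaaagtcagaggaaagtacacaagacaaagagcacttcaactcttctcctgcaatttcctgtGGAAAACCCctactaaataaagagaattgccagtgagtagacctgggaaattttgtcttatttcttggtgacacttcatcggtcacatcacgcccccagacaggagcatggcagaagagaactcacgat
Fam43a +236 kb, intron 3 of a non-coding transcript, chr16:30835803-30836002: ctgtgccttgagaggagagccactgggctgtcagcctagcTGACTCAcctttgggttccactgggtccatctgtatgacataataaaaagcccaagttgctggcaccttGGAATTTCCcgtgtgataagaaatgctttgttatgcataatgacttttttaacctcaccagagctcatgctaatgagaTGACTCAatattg
Papss1 +134 kb, intergenic, chr3:131698280-131698479: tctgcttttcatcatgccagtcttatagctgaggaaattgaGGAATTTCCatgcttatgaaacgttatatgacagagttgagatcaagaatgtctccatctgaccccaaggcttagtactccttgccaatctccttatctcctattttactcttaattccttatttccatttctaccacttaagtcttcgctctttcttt
Irak3 +10.2 kb, intron 1, chr10:120191278-120191477: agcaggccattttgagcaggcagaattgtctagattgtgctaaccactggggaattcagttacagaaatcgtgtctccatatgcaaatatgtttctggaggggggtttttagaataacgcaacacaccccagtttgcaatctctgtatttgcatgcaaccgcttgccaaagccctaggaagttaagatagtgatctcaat
App +74.4 kb, intron 3, chr16:85099172-85099371: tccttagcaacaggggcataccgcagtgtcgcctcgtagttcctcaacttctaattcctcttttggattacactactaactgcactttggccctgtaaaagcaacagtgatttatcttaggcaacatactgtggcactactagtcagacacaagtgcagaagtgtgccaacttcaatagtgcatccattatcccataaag
The Nfkbia promoter window held 2 loose κB matches and the Tnfaip3 −30.8 kb window held 3, beside 1 AP-1 match. The Irak3 and App windows held neither set of letters, which says only that these letters were not in the window.

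LPS multiplied the number of p65 peaks. The 2 IL-4 PT/ctrl samples had 11026 and 10253 peaks, and the 2 IL-4 PT/LPS samples had 36738 and 38955. Each LPS sample lay above both controls, with means of 10640 ± 547 and 37847 ± 1568 (SD, n = 2 per group), a ratio of 3.56. The exact two-sided permutation test gave p = 0.33, which is the smallest that 2 against 2 samples allow. The median peak score, a −log10 of a p- or q-value, was 6.35 and 6.41 without LPS and 9.34 and 9.4 with LPS. No reads were used here, so the depth of the libraries is unknown, and more p65 on the DNA and a deeper LPS library cannot be told apart from the peak number alone. Without IL-4, the same step took p65 from 9706 and 9556 peaks to 26305 and 26820.

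**Figure D1:**
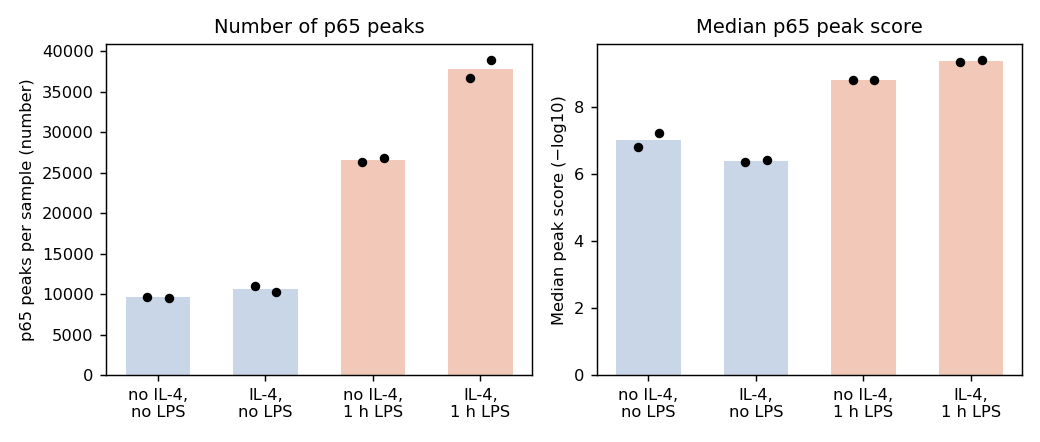
Number of p65 peaks (left) and median peak score, −log10 of a p- or q-value (right), in the 8 p65 samples. Bars are means of 2 samples and points are the samples. Both LPS groups lie above both groups without LPS, and IL-4 PT/LPS has the most peaks, 36738 and 38955.

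Most p65 peaks found before LPS were still there after it. Of 7022 regions with a peak in both control samples, 6402 (91.2%) also had one in both LPS samples and 6763 (96.3%) in at least 1. The reverse did not hold, since 19520 of the 30315 regions with a peak in both LPS samples (64.4%) had none in either control. Regions present in both controls and in no LPS sample numbered 259. The regions kept by all 4 samples had a median score of 8.78 and 8.27 without LPS and 24.7 and 26.4 with LPS, while the new regions had 9.44 and 10.1 with LPS. Thus the new regions were weaker than the kept ones in the same LPS samples.

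The new regions lay further from promoters. Promoter regions made up 6.34% of the new regions, 11.3% of those in all 4 samples, and 22.8% of the lost ones. Introns held 46.3% of the new regions, against 40.5% of those in all 4. The median distance to a transcription start site was 21.8 kb for new regions, 17.5 kb for those in all 4, and 13.7 kb for lost ones. Over all peaks of a sample, the promoter share was 14.5% ± 0.131 without LPS and 9.25% ± 0.0803 with LPS (SD, n = 2 per group), with no overlap between the groups (exact permutation p = 0.33).

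To ask which regions changed more than the rest, limma was run on the log2 of the highest peak score per region, over the 32112 regions that 2 or more samples shared. Scores were higher with LPS nearly everywhere, with a median log2 change of 1.40 at the 6402 regions in all 4 samples, or 2.64-fold. Each sample was therefore centred on those regions, which took out a log2 shift of 1.58, and changes below are relative to it unless called uncentred. On this scale 12598 regions (39.2%) were higher and 1509 (4.7%) lower with LPS at an adjusted p of at most 0.05. Uncentred, 24635 (76.7%) were higher and 326 (1.02%) lower. Regions with peaks only in the LPS samples made up 11576 of the 12598, and they entered the test through those samples alone, so their height rests on the score given to a missing peak. Where every sample had a peak and nothing was filled in, 916 of 6402 (14.3%) were higher and 1351 (21.1%) lower relative to the shift. With the filled value raised 4 times, the split turned to 4348 higher and 14242 lower. With peaks under a score of 5 dropped it was 4558 and 6974, so the relative direction of weak regions is not settled by these files.

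**Figure D2:**
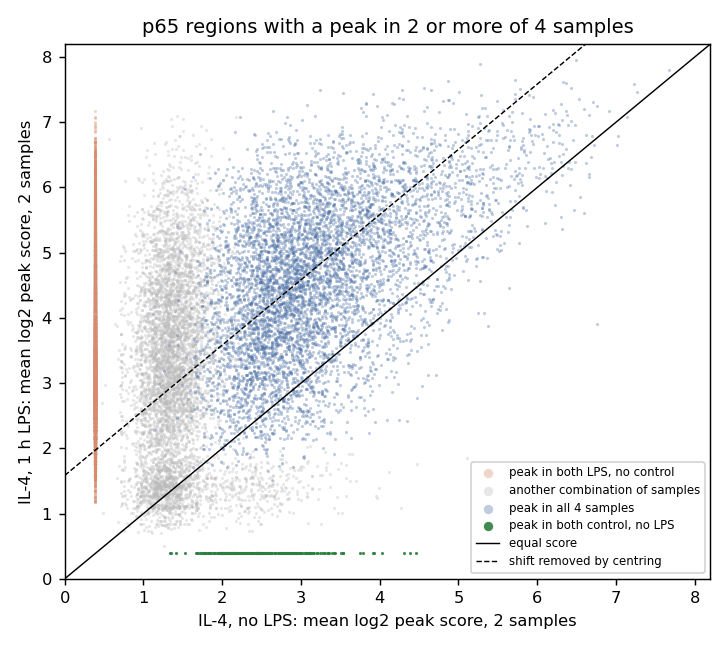
Mean log2 p65 peak score of 32112 regions with IL-4 alone (x axis) and with IL-4 and LPS (y axis), 2 samples each, coloured by which samples had a peak. The solid line marks equal scores and the dashed line the shift of 1.58 that centring removed; missing peaks sit at the lowest score of the files. Most regions found in all 4 samples lie above the solid line.

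Of the regions present in all 4 samples, 79.5% had both LPS scores above both control scores and 3.89% had both below. The rise was also split by control score, which is itself part of the change, so that a smaller rise at a high control score follows in part from the split. In the 1601 regions of lowest control score the median uncentred log2 change was 1.71, and in the 1600 of highest score it was 0.95. Promoters rose less than other places, with a median uncentred change of 0.93 against 1.46. These are descriptions over regions, which are not replicates.

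Genes of the NF-κB system itself were bound by p65 before LPS. Each gene was represented by its strongest tested region, and of 10939 genes with one, 33.2% were higher and 7.97% lower on the centred scale (70.6% and 1.03% uncentred). None of the 5 NF-κB subunit genes had a lead region that was higher, and 4 had one that was lower relative to the shift. A lead region is the strongest over all 4 samples, which favours one already bound. Over all 31 regions of these genes 14 (45.2%) were higher and 5 lower, beside 39.2% and 4.7% of all regions. At the promoter of Nfkb1, which encodes p105 and p50, scores were 26.4 and 23.9 before LPS and 27.6 and 30.9 after it. The groups did not overlap there, yet the change was 0.22 ± 0.15 (SE) uncentred (limma adjusted p = 0.27) and −1.37 ± 0.17 centred (adjusted p = 0.0088). The promoters of Nfkb2 (53.2 and 50.8, then 64.2 and 76) and Relb (25.6 and 28.8, then 47.2 and 38.5) were likewise already bound. The lead region of Rela, 11.5 kb from its start, went from 26.4 and 21.2 down to 14.9 and 14.2. Rel, which encodes c-Rel, was the exception, with a region at +16.5 kb at 30.6 and 9.48 before LPS and 135 and 142 after it, a rise of 3.02 uncentred that passed the test on that scale only.

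Of 15 feedback inhibitors of NF-κB, 2 lead regions were higher and 7 lower on the centred scale. Uncentred, 11 were higher (73.3%, beside 70.6% of all genes) and 2 lower. Over all 132 regions of these genes 57 (43.2%) were higher and 19 lower, beside 39.2% and 4.7% of all regions. Of the 15 genes 14 had a region that was higher (93.3%, beside 56.4% of all genes). These genes also had more tested regions each (8.8, beside 2.94), which gives more chances of such a call. The Tnfaip3 promoter region (−0.1 kb, chr10:19015230-19015883) had 125 and 116 without LPS and 144 and 143 with it. It was high in every sample, and its uncentred change was 0.26 ± 0.06 (adjusted p = 0.025), which is lower on the centred scale, −1.32 ± 0.06 (adjusted p = 0.0056). The Nfkbia promoter region (−0.2 kb, chr12:55492506-55493115) went from 41.4 and 58.2 to 124 and 112, a rise of 1.27 ± 0.21 uncentred (adjusted p = 0.013) that did not stand out from the shift. Nfkbib, which encodes IκBβ, had 88.6 and 97.8 at its start site and fell to 53.4 and 63. Cyld, a deubiquitinase that restrains the pathway, fell from 19.3 and 25.8 to 6.83 and 6.82. These last 2 were lower on both scales. In contrast, Otud1 (+8.1 kb; 27.5 and 32) and Nfkbid, which encodes IκBNS (10.6 and 8.07), had no peak before LPS at their lead regions.

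Away from these promoters, the same genes also had new regions, as 60.8% of all tested regions with a gene name were. Of the 25 tested regions annotated to Tnfaip3, 17 were new with LPS, 15 were called higher, and 5 lower. At −30.8 kb the scores were 124 and 108 with LPS, at −62.7 kb 99.1 and 100, and at −11.5 kb 56.5 and 54.5, with no peak in either control at any of the 3. Nfkb1 had 16 tested regions, of which 13 were new, and the one in intron 6 at +51.2 kb reached 120 and 119 from no peak. At Nfkbia 5 of 12 regions were new. The scores in the Nfkbia gene moved the other way: at +0.8 kb they fell from 52.5 and 47.4 to 21.5 and 22.2 (−1.19 ± 0.13 uncentred, adjusted p = 0.0046), and at its end, +3.8 kb, from 25.7 and 18.7 to no peak in either LPS sample. That region was the largest fall of all (−5.65 ± 0.24 centred, adjusted p = 0.0056). Therefore the p65 score rose at the Nfkbia promoter, though not beyond the shift, and fell within the gene in the same samples.

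**Figure D3:**
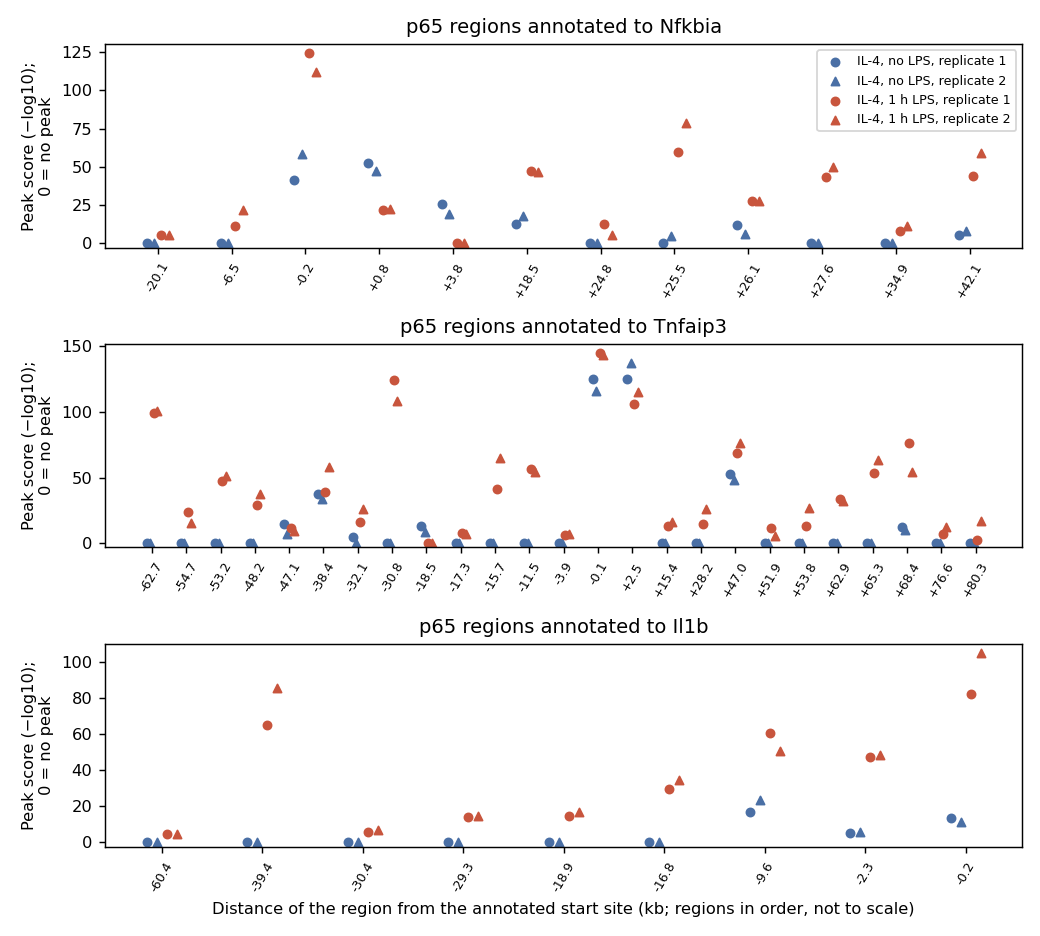
p65 peak scores (−log10; 0 marks no peak) at every tested region annotated to Nfkbia, Tnfaip3, and Il1b, in order of distance from the start site in kb, with 2 samples of IL-4 alone (blue) and 2 of IL-4 and LPS (red). The Nfkbia promoter rises while the regions at +0.8 and +3.8 kb fall, the Tnfaip3 promoter is high in all samples, and most other regions appear with LPS.

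Inflammatory cytokine genes rose with LPS on the uncentred scale, and fewer of them beyond the shift. Of 20 inflammatory cytokine genes 19 had a tested region. Of their lead regions 7 were higher (36.8%, beside 33.2% of all genes) and 1 was lower (Lta). Uncentred, all 19 were higher (100%, beside 70.6%). Over the 112 regions annotated to these genes 75 (67%) were higher, beside 39.2% of all regions. However, 79 of the 112 (70.5%, beside 60.8%) were new with LPS, and the call of a new region rests on the filled value. The Il1b promoter region (−0.2 kb, chr2:129371005-129371620) went from 13 and 10.9 to 82.4 and 105, a rise of 1.38 ± 0.19 beyond the shift (adjusted p = 0.01). Il12b, which encodes the p40 chain of IL-12 and IL-23, went from 3.2 and 4.65 to 72.9 and 83 at −27.1 kb. Il15 went from 11.1 and 6.77 to 123 and 99.8 at its promoter. All 3 were higher on the centred scale. Il23a had no peak before LPS and 34.4 and 34.8 after it. Tnf (5.75 and 10.2, then 54.8 and 57.9) and Il6 at −64.8 kb (40.8 and 39.1, then 116 and 126) rose uncentred only. IL-10, the anti-inflammatory cytokine, had p65 at +6.2 kb of its gene Il10 that went from 5.94 and 6.95 to 44.4 and 42.5 and passed the centred test as well.

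Among 16 chemokine genes, 15 had a tested region, 4 lead regions were higher (26.7%, beside 33.2%) and 2 lower. Uncentred, 13 were higher (86.7%, beside 70.6% of all genes). Ccl4 had no peak before LPS and 54.1 and 58.8 after it at −6.6 kb, and Ccl3 went from 5.25 and 8.57 to 56.1 and 57.6 at its promoter. Cxcl2, a neutrophil attractant, went from 10.1 and 11.3 to 70.3 and 71.2. The Cxcl16 region at −8 kb was strong throughout, at 160 and 148 before LPS and 159 and 196 after it, with no change that passed uncentred (0.2). It was lower relative to the shift.

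**Figure D4:**
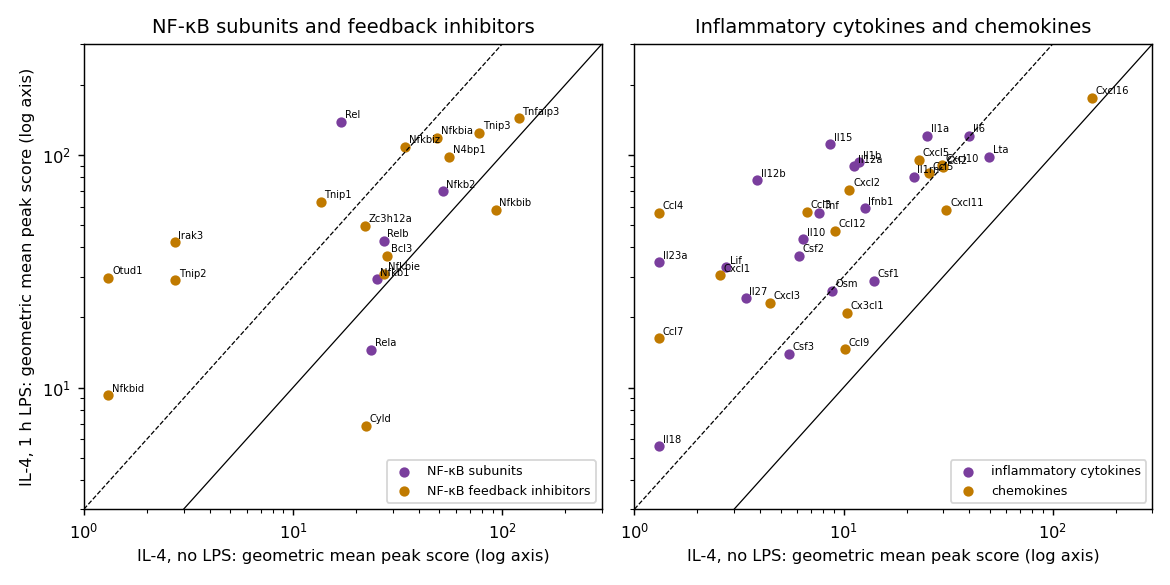
Geometric mean p65 peak score (log axes) at the lead region of each gene with IL-4 alone (x axis) and with IL-4 and LPS (y axis), 2 samples each, for 5 NF-κB subunit and 15 feedback inhibitor genes (left) and for cytokine and chemokine genes (right). The solid line is equality and the dashed line the shift of 1.58 on the log2 scale. Many subunit and inhibitor genes lie between the lines, and most cytokine and chemokine genes on or above the dashed line.

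Of 26 survival and adhesion targets, all had a tested region, 11 lead regions were higher (42.3%, beside 33.2% of all genes) and 1 lower (Birc3). Uncentred, 22 were higher (84.6%, beside 70.6%). The A1 genes Bcl2a1a and Bcl2a1d, which block apoptosis, went from 15.9 and 20 to 140 and 175 and from 13.8 and 5.16 to 147 and 160, although reads of such near-identical genes can be split by mapping. Ptges, which makes prostaglandin E2, went from 3.66 and no peak to 105 and 101. Sod2, the mitochondrial superoxide dismutase, held the strongest p65 region of the LPS samples in its second intron (+2.4 kb), at 92 and 88.6 before LPS and 242 and 251 after it, and rose with the shift. Among 27 LPS receptor and signalling genes, 23 had a tested region, 4 were higher (17.4%, beside 33.2%) and 4 lower. Ikbkb, the kinase that releases p65, had 47 and 46.8 at −10.7 kb with LPS and no peak before, whereas Tlr2 went from 62 and 67.3 to 121 and 125 at −21.4 kb, lower relative to the shift but higher uncentred.

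Inflammasome genes mostly moved with the shift. All 10 had a tested region, 1 lead region was higher (P2rx7; 10%, beside 33.2% of all genes) and 1 lower (Casp4). Uncentred, 9 were higher (90%, beside 70.6%). Nlrp3, the sensor, went from 38.9 and 37.2 to 134 and 138 at −1.2 kb, a change of 0.25 centred that did not pass. Of 14 AP-1 genes 5 lead regions were higher (35.7%, beside 33.2%) and 2 lower. Of 22 interferon genes 20 had a region, with 8 higher (40%) and 3 lower. Of 15 feedback phosphatase, SOCS, and mRNA decay genes 4 were higher (26.7%) and 1 lower. Over all genes 7.97% were lower. Gbp5 went from 5.33 and 3.41 to 88.5 and 83.9 at its promoter, Mx1 from 4.65 and no peak to 69.1 and 67.4 at −9.8 kb, and Socs3 from 33.2 and 31 to 166 and 188 at +22.8 kb. All 3 were higher.

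Genes of alternative activation were higher in a smaller share than all genes, a count with no test. Of 25 such genes 23 had a tested region, with 5 lead regions higher (21.7%, beside 33.2%) and 2 lower, and 15 higher uncentred (65.2%, beside 70.6%). Of their 121 regions 24% were higher, beside 39.2%, and 47.1% were new with LPS, beside 60.8%. Ccl22 had no peak before LPS and 26.6 and 23.4 after it at its promoter, Egr2, an IL-4-induced factor, had 21.9 and 26.6 at −13.7 kb, and Mrc1, the mannose receptor, went from 3.48 and 3.72 to 21 and 29.4. Arg1 had 11.4 and 18.3 before LPS and 24.3 and 25.5 after it, with no call on either scale. Of 15 macrophage lineage factors 14 had a region, with 2 higher (Tfec and Cebpd; 14.3%, beside 33.2%) and 1 lower, the PU.1 gene.

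The labelled cell type was checked with marker genes, read as genes with a p65 region and not as expression. All 13 macrophage markers had a tested region, including Csf1r, Itgam, Lyz2, and Adgre1 (F4/80). Of their lead regions 3 were higher (23.1%, beside 33.2% of all genes) and 3 lower. Of 33 markers of other lineages, 15 had one, and none was found at Cd3e, Pax5, Cd79a, Gata1, Alb, Col1a1, Mpo, or Elane. Lck and Gata3 were among the 3 that were higher (20%, beside 33.2%).

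The 10 largest rises were all regions with no peak before LPS. Among them were regions annotated to Ell2, Tmem2, Alpk2, Fam43a, Tnip1, 2010111I01Rik, Nfkb1, Btla, and Tnfaip3, and 3 of these, Tnip1, Nfkb1, and Tnfaip3, belong to the NF-κB system. The Ell2 region, in intron 4 of a gene for a transcription elongation factor, reached 137 and 154. At Tnip1, whose product works with A20, the region at +8.7 kb reached 125 and 121. Their centred changes ran from 4.88 to 5.21 and depend on the filled value. In the LPS samples the 10 strongest regions were those of Sod2, Ccdc88b, Arid1b, 4930529L06Rik, Klf3, Fpr2, Ets2, Papss1, Poc1b, and Gpd2, and all 10 had peaks in both controls too. The Arid1b region, at −369 kb, had 180 and 230 before LPS and 210 and 236 after it, so that the strongest p65 region of the control samples did not pass the uncentred test (0.13 ± 0.16, adjusted p = 0.51).

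The 10 largest falls were annotated to Nfkbia, App, Spata2, Serpind1, Ptprj, Notch2, Malt1, Hist1h4i, Fam168b, and Aim1. In 8 of them neither LPS sample had a peak. The Spata2 promoter, a gene for a partner of CYLD, went from 18.6 and 20.9 to no peak, and the Malt1 region at −3.5 kb from 10.8 and 17.6 to no peak. Fam168b, at 33 and 36.3 before LPS and 10 and no peak after it, was not lower uncentred (adjusted p = 0.08).

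Sequence was not used to choose the regions. The κB letters GGANNTTCC, on either strand, stood within 200 bp around the centre of 11.4% of regions in all 4 samples, 11.3% of new regions, and 3.47% of lost regions, beside 2.98% of 32851 RefSeq promoter windows of the same length. The AP-1 letters TGANTCA separated the classes more, with 17.7% in all 4 samples, 27.9% of the new regions, 2.32% of lost regions, and 5.48% of promoters. The PU.1 letters GAGGAAGT stood in 11.2%, 6.48%, and 10%, and the ISRE letters GAAANNGAA in 11.4%, 12.8%, and 13.1% (2.06% and 5.57% of promoters). A κB match can overlap a PU.1 match. κB letters were more frequent where p65 was stronger: the share rose from 7.94% in the 4886 weakest new regions by LPS score to 15.8% in the 4877 strongest, and from 7.5% in the 1600 weakest of the regions in all 4 samples by control score to 18% in the 1598 strongest. Among the 100 largest rises 24% had them, and among the 100 largest falls 4%. At regions in all 4 samples the uncentred change differed little by κB letters (1.45 with, 1.40 without) and more by AP-1 letters (1.80 with, 1.31 without). The median GC content was 46% in new and 50.5% in lost regions, and its part in these shares was not tested.

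**Figure D5:**
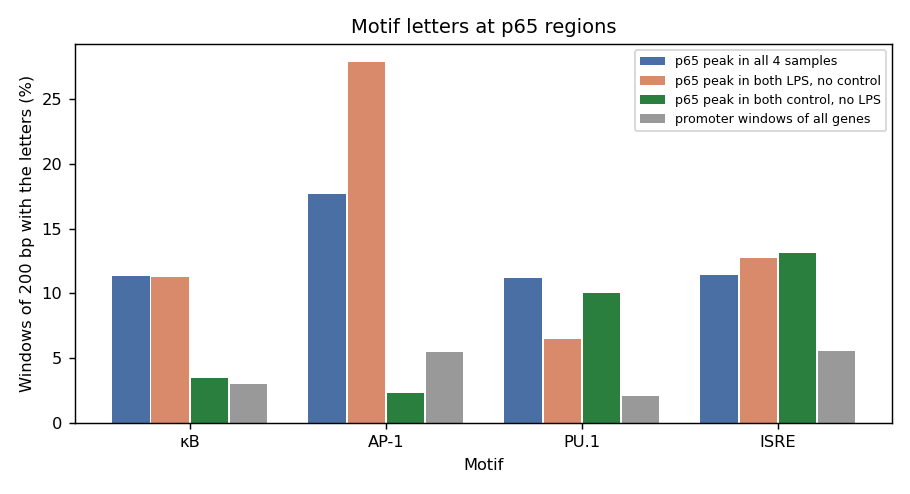
Share of windows of 200 bp (%) that hold the κB, AP-1, PU.1, or ISRE letters on either strand, for p65 regions with a peak in all 4 samples, in both LPS samples only, and in both control samples only, and for promoter windows of all genes. AP-1 letters are most frequent in the LPS-only regions (27.9%), and lost regions are near the promoter share for κB (3.47% against 2.98%).

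RNA polymerase II phosphorylated at serine 5 (RNAPII-pS5, initiating) and serine 2 (RNAPII-pS2, elongating) were measured in other samples of the same 2 treatments, 2 each. With missing peaks filled, 16% of 21776 RNAPII-pS5 regions were higher with LPS and 23.7% lower (limma, centred). For RNAPII-pS2 24.9% of 30694 were higher and 17.8% lower. With a peak in every sample, 925 RNAPII-pS5 regions were higher and 798 lower, and 1752 and 1640 for RNAPII-pS2. With the filled value raised 4 times these were 547 and 437, and 4087 and 12000. With peaks under a score of 5 dropped they were 1531 and 1734, and 4127 and 4303. So the balance of rises and falls depends on how missing peaks are handled. Of the p65 regions called higher, 4059 overlapped a tested RNAPII-pS5 region, and 1393 of those (34.3%) were on one that rose. For RNAPII-pS2 the numbers were 7469 and 3683 (49.3%). Over all tested p65 regions on a tested RNAPII-pS5 region, 18.5% were on one that rose and 16.5% on one that fell. For RNAPII-pS2 these shares were 29.1% and 9.57%. At p65 regions called lower, by contrast, 8.38% were on a RNAPII-pS5 region that rose and 27.2% on one that fell, and for RNAPII-pS2 8.52% and 28.8%. The 259 lost p65 regions went furthest: 41.9% of those on a RNAPII-pS5 region and 52.7% of those on a RNAPII-pS2 region lay where the polymerase mark fell. Hence polymerase and p65, each relative to its own shift, went the same way more often than not at the regions that passed both tests. The link was not tested. Uncentred, only 326 p65 regions were lower, so most of the 1509 called lower rose less than the rest or did not pass as a fall.

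Whether IL-4 changed the p65 response to LPS was tested with the interaction over all 8 p65 samples, (IL-4 PT/LPS − IL-4 PT/ctrl) − (ctrl/LPS − ctrl/ctrl). Of 37564 regions, 6716 (17.9%) had a larger response with IL-4 and 2049 (5.45%) a smaller one; uncentred the shares were 23.2% and 4.06%. Many of these regions lacked a peak in some sample. In a fit of the 3971 regions with a peak in every sample 28 (0.705%) had a larger and 37 (0.932%) a smaller response. With the filled value raised 4 times, 2620 had a larger and 7915 a smaller response. With peaks under a score of 5 dropped these were 2095 and 2111. So the excess of larger responses depends on the value given to a missing peak, and its direction is not settled by these files. Of the 19520 new regions, 47.7% had a peak in both ctrl/LPS samples and 34.3% in neither. Those in neither had median scores of 6.86 and 7.44 with LPS, against 13.6 and 14.8 for those in both, and the IL-4 PT/LPS lists were also the longest, so a p65 gain and a deeper library cannot be told apart for them. AP-1 letters stood in 22.7% of the former and 32.2% of the latter, and κB letters in 11.4% and 11.7%.

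At 2 of the largest rises the difference of responses did not pass the test. The Ell2 region reached 126 and 140 without IL-4 and 137 and 154 with it, and the difference of responses was −0.34 ± 0.24 (adjusted p = 0.41). For the Nfkb1 +51.2 kb region these were 101 and 89.8, and 120 and 119 (−0.14 ± 0.25, adjusted p = 0.78). A p that misses the threshold does not show that the responses were alike. Chosen after their values were seen, a region 8.2 kb upstream of Edn1, which encodes endothelin 1, had a peak only in the IL-4 PT/LPS samples (71.1 and 81.1), and one 1.1 kb upstream of the immediate early gene Ier2 only in the ctrl/LPS samples (31.4 and 33.9).

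For 4 enhancers named in the study, the tested region nearest to the named distance was taken, within 1000 bp. The Il1b one (−9.6 kb, chr2:129380149-129381390) had 16.4 and 23.2 with IL-4 alone and 60.7 and 50.6 with IL-4 and LPS. Without IL-4 it had 25.5 and 40.5, and 127 and 113 with LPS. Both samples without IL-4 were above both with IL-4, before and after LPS, but the difference of responses, −0.85 ± 0.43, did not pass (adjusted p = 0.24). The paper reports partial attenuation by IL-4 at some but not all of the p65 peaks of this enhancer. The merged region kept only the highest score per sample, so its test may not bear on the attenuated peak. At the Irak3 enhancer (+10.2 kb, chr10:120191144-120191602) IL-4 alone left no peak where there had been 37.9 and 36.4, and LPS brought 52.1 and 42.5 with IL-4 against 84.7 and 102 without it. The difference of responses was 3.38 ± 0.28 (adjusted p = 0.0025), a larger step with IL-4 from a floor to a lower level. Irak3, or IRAK-M, is a pseudokinase that restrains TLR signalling. For the Fcgr1 enhancer, named −7.7 kb, the nearest tested region lay at −6.9 kb (chr3:96300603-96301144) and may not be the same element. It went from 5.21 and 5.82 to 47.1 and 45.3 with IL-4, and from 9.23 and 14.7 to 42.6 and 48.7 without it (0.64 ± 0.37, adjusted p = 0.31). No tested region annotated to Il18 lay within 1000 bp of +25 kb.

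The LPS-induced genes that the study had grouped by RNA-seq as attenuated, not changed, or raised by IL-4 were counted as well. They were chosen by the study in the same system and are not independent evidence. Of 482 attenuated genes with a tested region 33.2% had a lead region that was higher, of 586 unchanged genes 38.2%, and of 134 raised genes 30.6%, beside 33.2% of all genes. Their regions were higher in 44.8%, 46.4%, and 42.5%, beside 39.2%. Uncentred, 78.6%, 80%, and 82.8% of lead regions were higher, beside 70.6%. Genes with any region higher made up 79.9%, 73.7%, and 78.4%, beside 56.4%, and these genes also had more tested regions each (5.23, 4.43, and 4.87, beside 2.94).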

How the data were processed

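p65 ChIP-seq peak lists of 4 samples were used, with 4 p65 lists without IL-4 and 8 RNAPII lists for comparison. Per the labels and methods, the authors aligned reads to mm10 (BWA 0.7.10), called peaks with MACS2 2.0.10, and annotated them with HOMER 4.2. Each deposited peak carries a score, the −log10 of its MACS2 p- or q-value. Whether p or q is not given in the sources used here. It grows with depth, which is unknown. Overlapping peaks (at least 1 bp) were merged, samples without a peak in a region took the files' minimum, 1.31, and regions with a peak in at least 2 samples were tested with limma 3.58.1 in R 4.3.3 (trend, Benjamini-Hochberg, adjusted p at most 0.05), after centring on regions found in every sample. The study's test on reads could not be repeated. Python 3.11.15 was used for the rest. Each gene was represented by its tested region of highest mean log2 score. Named were the members of the gene lists, the 10 largest rises and falls among calls, the 10 strongest regions with LPS, and the enhancers named by the study. Samples, gene lists, and rules were chosen with earlier results of these data known. In simulated data 48% of 200 regions changed by 1 on the log2 scale and 100% of those changed by 2 were recovered for p65 (46433 and 46429 regions), with 2.72% and 2.75% of unchanged regions called. For the difference of responses 0% and 82.5% were recovered (51284 and 51265 regions). In the p65 simulation the unchanged regions called outnumbered the changed ones recovered. It also had fewer missing peaks than the data, where 32112 regions passed the filter, so its error rates may not hold for the data. Some named regions are not reported here.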

Additional observations from a re-analysis of the deposited data

Results flagged for a closer look

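The p65 response to LPS differed with and without IL-4 by the interaction over 8 samples (limma, 37564 regions, centred log2 differences) in 20 of the regions described. They are those with values in the text and, of the 225 lead regions of the gene lists, those that also passed with nothing filled in. Of these 225, 17 had a larger and 16 a smaller response with IL-4, beside 17.9% and 5.45% of all 37564 regions. In the fit of 3971 regions with a peak in all 8 samples, 0.705% had a larger and 0.932% a smaller response. Of the 125 lead regions in that fit 5 passed. These 5 were larger at Etv6 (1.57, adjusted p = 0.0041 in that fit), Bcl2a1b (1.59, adjusted p = 0.027), and Bcl2a1a (1.43, adjusted p = 0.048), and smaller at Tnip3 (−1.03, adjusted p = 0.015) and Ikbke (−0.75, adjusted p = 0.031), the last 2 not passing uncentred. At Etv6 the scores without IL-4 were 64.3 and 67.5 before LPS and 61.1 and 71 after it, and with IL-4 22 and 28.5, then 94.8 and 111.

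The others lack a peak in some sample, so their size depends on the value given to a missing peak. The response was larger with IL-4 at Edn1 −8.2 kb (5.39), Irak3 +10.2 kb (3.38), P2rx7 (3.27), Btla +73.6 kb (2.88), Nfkbid (2.36), Il23a (1.72), Tnfaip3 −62.7 kb (1.48), Lck (1.29), Otud1 (1.15), and Alpk2 +18.4 kb (0.98, adjusted p = 0.0499). At Btla the scores with LPS were 110 and 125 with IL-4 and 13 and 10.2 without it. It was smaller at Ier2 −1.1 kb (−5.10), the promoters of Spata2 (−4.03) and Hist1h4i (−2.86), Mrc1 (−2.45), and Ptprj +2.6 kb (−2.12). Mrc1 had 3.48 and 3.72, then 21 and 29.4 with IL-4, and no peak, then 37.1 and 34.8 without it. Spata2 had 18.6 and 20.9 with IL-4 alone and no peak after LPS, against 8.33 and 3.56, then 5.98 and 3.07 without IL-4.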

How the results depend on the processing

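The counts higher (12598) and lower (1509) with LPS became 24635 and 326 with no centring, 4348 and 14242 with the higher floor, and 4558 and 6974 with peaks of score 5 or more. With a peak in every sample, 916 were higher. Leaving out 1 sample gave 397 to 11324 higher and 476 to 2738 lower. Without either LPS sample, regions seen only with LPS failed the 2-sample filter. On the same regions, an alternative chosen after seeing the data, it gave 11083 to 18162 and 2306 to 2795 (2731 and 2758 without either control). The 8765 regions with a different response became 65 with a peak in every sample, 4206 with score 5 or more, and 117 to 8335 without 1 sample (5776 to 10051 on the same regions). RNAPII-pS5 rose at 1393 p65 regions, and at 286 with a peak in every sample, 225 with the higher floor, 615 with score 5 or more, and 189 to 350 without 1 sample. For RNAPII-pS2 (3683) these were 961, 2359, 2377, and 436 to 2616. The κB share in all 4 samples was 6.75% in 100 bp, 15.6% in 400 bp, 2.64% for GGAATTTCC, 45.9% for GGANNNNCC, and 8.28% at regions called neither way. In new regions it was 7.48%, 14.5%, 2.97%, and 43.2%, with 12.9% at regions called higher, and in lost regions 0.386% and 36.7%, with 11.2% at regions called lower. With no centring, 6 regions called on the centred scale changed sign, beside 6 that had no call. Those called were Arid1b 0.13, Fpr2 1.29, Papss1 0.36, Tnfaip3 −0.1 kb 0.26, Nfkb1 promoter 0.22, and Tlr2 0.92. Of 774 values of 44 named regions, 666 kept direction and call. The cause of these moves was not tested. Same-numbered samples did not deviate together (r = −0.007), and with the replicate number as a block 10447 regions were higher, 1758 lower, 7448 differed in response, and RNAPII-pS5 and RNAPII-pS2 rose at 1493 and 3983, within 1.5 times of the fits without the block. Depth is unknown, and 2 samples per group cannot pass an exact test.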
